A study of Mus musculus with 4 samples.

Results

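The T cell genes described here are *Cd3d*, *Cd3e*, *Cd3g*, *Cd4*, *Cd8a*, *Cd8b1*, *Lck*, *Cd2*, *Themis* and *Ly6c2*, 10 of the 23420 gene symbols counted in bulk RNA of mouse prefrontal cortex (PFC). They were taken as a named list of genes of T cells and compared, sample by sample, between cortex injected with *Ash1L* shRNA virus and cortex injected with control virus. The list was drawn up with the counts of these same 4 samples in view, so the difference between the groups in these 10 genes is given as a description and carries no test. In every one of the 10 genes the mean of the *Ash1L* shRNA samples lay below the mean of the control samples, by 2.84-fold for *Cd8a* to 10.6-fold for *Ly6c2*. The control samples themselves differed by 1.99-fold in the sum of the 10 genes.

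All samples came from PFC of C57BL6/J mice infected with adeno-associated virus of serotype 9 (AAV9) that makes the fluorescent protein GFP. Control samples 1 and 2 were injected with the GFP virus. *Ash1L* shRNA samples 1 and 2 were injected with a virus that also expresses a short hairpin RNA against *Ash1L*, the gene of a histone methyltransferase, from the U6 promoter, which is active in most cell types. The labels name the control virus only by GFP, and the methods describe a scrambled hairpin. The methods place the injection at 5 weeks of age, and the series lists mice of 6 to 8 weeks. According to the methods a sample pooled GFP-positive punches of 3 mice, which cannot be squared with the 2 control and 3 *Ash1L* shRNA mice that the series lists. Animals of both sexes were used in the study, and the sex of the mice behind each sample is not given in the sources used here. Both groups carried a virus, and no uninjected cortex was analysed here.

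T cells recognise antigen through a receptor whose variable chains signal only together with the CD3 subunits, encoded by *Cd3d*, *Cd3e*, *Cd3g* and *Cd247*. The coreceptors CD4 and CD8 bind major histocompatibility complex (MHC) class II and class I molecules and bring the kinase Lck to the receptor. Few T cells lie in healthy brain tissue, most of them in the meninges, the choroid plexus and the vessels, and more enter the tissue after infection or injury.

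Promoter sequences of the CD3 genes are shown because *Cd3g*, *Cd3d* and *Cd3e* lie side by side on chromosome 9 (chr9:44969572-44980431, chr9:44981786-44987339 and chr9:44998740-45009627) and were all lower in the *Ash1L* shRNA samples. From the first to the last base they span 40056 bases (mm10), and *Cd3d* and *Cd3g* are read in opposite directions from starts that lie 1355 bases apart. Each line gives the 100 bases before the RefSeq start (GRCm38.p6) on the gene's own strand, 5′ to 3′. Capitals mark GGAA on either strand, which reads TTCC on the strand shown and is the core of the sites bound by ETS transcription factors.
*Cd3g*, chr9:44980432-44980531, minus strand: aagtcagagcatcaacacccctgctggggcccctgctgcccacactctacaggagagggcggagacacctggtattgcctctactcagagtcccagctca
*Cd3d*, chr9:44981686-44981785, plus strand: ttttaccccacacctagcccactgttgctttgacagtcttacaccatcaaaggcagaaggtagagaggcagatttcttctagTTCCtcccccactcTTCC
*Cd3e*, chr9:45009612-45009711, minus strand: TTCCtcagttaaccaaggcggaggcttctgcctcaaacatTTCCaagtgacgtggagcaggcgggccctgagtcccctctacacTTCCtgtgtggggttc
GGAA was found 3 times before *Cd3e*, 2 times before *Cd3d* and 0 times before *Cd3g*. Windows were matched for 7 of the 10 genes, without *Cd4*, *Cd8b1* and *Cd2*, and 5 of the 7 held GGAA in the first window listed for the gene, beside 66.8% of 32851 promoter windows of this length. Of the further windows, those of *Ly6c2* and *Themis* held it and that of *Lck* did not. No file used here measured binding at these promoters.

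A second pair of sequences is shown because *Ly6c2*, the gene with the most counts of the list, has a close copy whose reads it could share. The coding sequences of the genes *Ly6c2* (chr15:75108158-75111970, minus strand, mm10) and *Ly6c1* (chr15:75044018-75048830, minus strand) are each 393 bases long and differ at 9 bases, an identity of 97.7%. Their longest shared stretch is 188 bases. The first 90 coding bases hold 6 of the 9 differences, which are in capitals.
*Ly6c1*: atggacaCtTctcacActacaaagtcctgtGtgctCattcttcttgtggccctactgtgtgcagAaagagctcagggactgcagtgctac
*Ly6c2*: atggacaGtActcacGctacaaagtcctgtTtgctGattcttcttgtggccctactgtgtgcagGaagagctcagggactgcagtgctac
*Ly6c1* is expressed by brain endothelium and *Ly6c2* by T cells, monocytes and other leukocytes, so values of *Ly6c2* are uncertain to the degree that reads were placed on the wrong copy.

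The libraries of control samples 1 and 2 held 14251190 and 35764874 counts, and those of *Ash1L* shRNA samples 1 and 2 held 27479339 and 20106708. Levels are given as CPM, the counts of a gene in every 1000000 counts of the sample. A gene with 3 counts, taken here as a floor, would stand at 0.0839 to 0.211 CPM. The intervals given here are exact Poisson or binomial 95% intervals that cover counting error only. *Ash1l* itself had 243 and 285 CPM in the control samples and 215 and 142 CPM in the *Ash1L* shRNA samples. Its log2 fold change was -0.60 (SE 0.22), with an adjusted p of 0.275 by edgeR's quasi-likelihood test, and it was -0.97 (adjusted p 0.0063) without *Ash1L* shRNA sample 1 and -0.31 (adjusted p 0.458) without *Ash1L* shRNA sample 2. The knockdown samples were both below the controls, and sample 2 was the lower of them.

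The counts of the 10 genes summed to 343 in control sample 1 and 1717 in control sample 2, against 226 in *Ash1L* shRNA sample 1 and 111 in *Ash1L* shRNA sample 2. In CPM this was 24.1 (21.6 to 26.8) and 48.0 (45.8 to 50.3) in the controls and 8.22 (7.19 to 9.37) and 5.52 (4.54 to 6.65) in the *Ash1L* shRNA samples. The lowest control was 2.93-fold above the highest *Ash1L* shRNA sample, and none of the 4 intervals overlapped. The group means were 36.0 ± 16.9 and 6.87 ± 1.91 CPM (SD, n = 2), a 5.24-fold difference, and the mean of the *Ash1L* shRNA samples was 3.50-fold below control sample 1 alone. With 2 samples in each group an exact two-sided permutation test cannot give a p below 0.333. In bulk tissue, fewer T cells and less RNA of these genes in each T cell cannot be told apart.

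**Figure D1:**
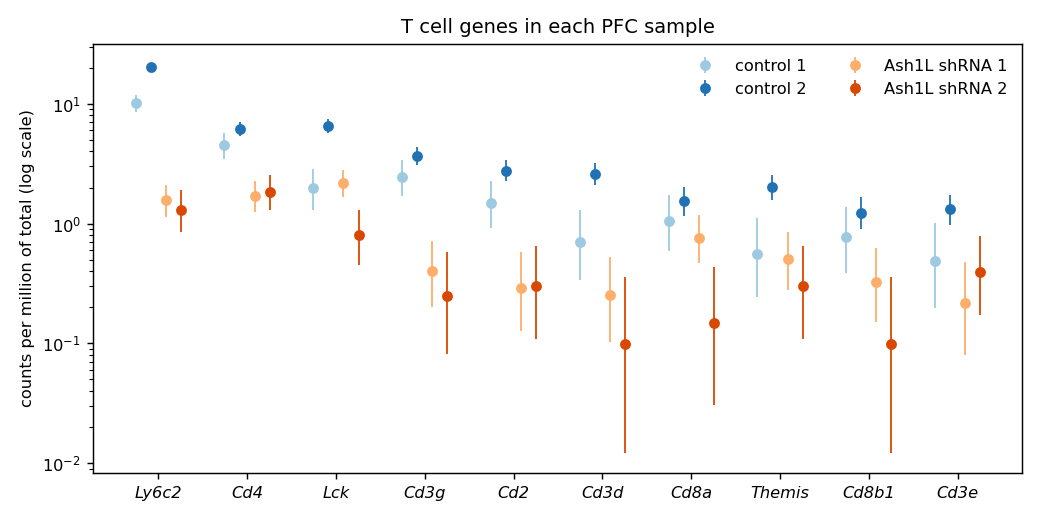
CPM (log scale) of the 10 T cell genes in each of the 4 PFC samples, with exact Poisson 95% intervals. Control samples are blue and *Ash1L* shRNA samples orange, and *Lck* is the gene in which a control sample (1.96) and an *Ash1L* shRNA sample (2.18) overlap.

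Among the CD3 subunits, *Cd3g*, the gamma chain (ENSMUSG00000002033), had 35 and 131 counts in the control samples and 11 and 5 in the *Ash1L* shRNA samples (2.46, 3.66, 0.400 and 0.249 CPM). Both controls were well above both *Ash1L* shRNA samples, with means of 3.06 ± 0.853 and 0.324 ± 0.107 CPM (SD, n = 2) and a fitted log2 fold change of -3.24 (SE 0.48). *Cd3d*, the delta chain (ENSMUSG00000032094), had 10 and 93 counts in the controls and 7 and 2 in the *Ash1L* shRNA samples (0.702, 2.60, 0.255 and 0.0995 CPM). Its control samples differed by 3.71-fold (1.93 to 7.98), against 9.32-fold between the group means. The log2 fold change of -3.23 (SE 0.83) became -1.93 without control sample 2. *Cd3e*, the epsilon chain (ENSMUSG00000032093), had 7 and 47 counts in the controls and 6 and 8 in the *Ash1L* shRNA samples (0.491, 1.31, 0.218 and 0.398 CPM). It differed least of the CD3 chains, with a log2 fold change of -1.71 (SE 0.67), and control sample 1 with 7 counts lay above *Ash1L* shRNA sample 2 with 8 counts only through its lower depth. An antisense gene, *Gm48719*, overlaps 135 bases of the *Cd3e* exons (3.31%), and the strand setting of the counting is not given in the sources used here.

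The coreceptor *Cd4* (ENSMUSG00000023274, chr6:124864692-124888221, minus strand) had 64 and 220 counts in the controls and 47 and 37 in the *Ash1L* shRNA samples. That is 4.49 and 6.15 against 1.71 and 1.84 CPM. The samples agreed well within each group, with means of 5.32 ± 1.17 and 1.78 ± 0.0918 CPM (SD, n = 2) and a log2 fold change of -1.64 (SE 0.31), the smallest standard error of the list. *Cd8a* and *Cd8b1* encode the chains of the CD8 coreceptor of cytotoxic T cells and neighbour each other on chromosome 6 (71373427 to 71379173 and 71322788 to 71337494, both plus strand). *Cd8a* (ENSMUSG00000053977) had 15 and 55 counts in the controls and 21 and 3 in the *Ash1L* shRNA samples (1.05, 1.54, 0.764 and 0.149 CPM). *Cd8b1* (ENSMUSG00000053044) had 11, 44, 9 and 2 counts in the same order (0.772, 1.23, 0.328 and 0.0995 CPM). In both CD8 chains *Ash1L* shRNA sample 2 was the lowest, and for *Cd8a* the *Ash1L* shRNA samples differed by 5.12-fold (1.53 to 26.8), which is more than the 2.84-fold between the group means. The log2 fold changes were -1.49 (SE 0.71) for *Cd8a* and -2.21 (SE 0.67) for *Cd8b1*, and that of *Cd8a* was -3.18 without *Ash1L* shRNA sample 1 and -0.81 without *Ash1L* shRNA sample 2.

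*Lck* (ENSMUSG00000000409, chr4:129548344-129573641, minus strand), the kinase that starts signalling at the CD3 chains, had 28 and 234 counts in the controls and 60 and 16 in the *Ash1L* shRNA samples (1.96, 6.54, 2.18 and 0.796 CPM). It was the single gene of the list whose groups overlapped, since *Ash1L* shRNA sample 1 was above control sample 1. The controls differed by 3.33-fold (2.24 to 5.12) and the *Ash1L* shRNA samples by 2.74-fold (1.56 to 5.10). Its log2 fold change of -1.56 (SE 0.70) became -0.41 without control sample 2. *Themis* (ENSMUSG00000049109, chr10:28668360-28883818, plus strand), which sets the strength of receptor signalling during T cell development, had 8 and 72 counts in the controls and 14 and 6 in the *Ash1L* shRNA samples. In CPM, control sample 1 at 0.561 was close to *Ash1L* shRNA sample 1 at 0.509, while control sample 2 stood at 2.01 and *Ash1L* shRNA sample 2 at 0.298. The log2 fold change was -1.76 (SE 0.71) with all samples and -0.48 without control sample 2.

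*Cd2* (ENSMUSG00000027863, chr3:101275899-101287939, minus strand), an adhesion receptor of T and NK cells, had 21 and 99 counts in the controls and 8 and 6 in the *Ash1L* shRNA samples (1.47, 2.77, 0.291 and 0.298 CPM). The *Ash1L* shRNA samples were nearly equal, and the log2 fold change was -2.90 (SE 0.54). *Ly6c2* (ENSMUSG00000022584), a surface antigen of memory CD8 T cells and of inflammatory monocytes, had 144 and 722 counts in the controls and 43 and 26 in the *Ash1L* shRNA samples. This was 10.1 and 20.2 against 1.56 and 1.29 CPM, with means of 15.1 ± 7.13 and 1.43 ± 0.192 (SD, n = 2), and gave the lowest log2 fold change of the list, -3.45 (SE 0.40). The copy *Ly6c1* had 28.3 and 19.9 CPM in the controls and 26.7 and 27.5 CPM in the *Ash1L* shRNA samples, and its log2 fold change of 0.14 (SE 0.19) was not called. Of the counts on both copies, *Ly6c2* held 26.3% (22.7 to 30.2) and 50.3% (47.7 to 53.0) in the controls, and 5.53% (4.03 to 7.38) and 4.50% (2.96 to 6.52) in the *Ash1L* shRNA samples. The share of *Ly6c2* was thus higher in each control sample than in either *Ash1L* shRNA sample. The sum of the T cell genes without *Ly6c2* was 14.0 and 27.8 CPM in the controls and 6.66 and 4.23 CPM in the *Ash1L* shRNA samples.

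Set over transcript length (CPM per kilobase of the longest coding transcript), the control means ran in the order *Ly6c2* 18.4, *Cd3g* 2.99, *Lck* 1.95, *Cd2* 1.84, *Cd4* 1.71, *Cd3d* 1.02, *Cd8b1* 0.675, *Cd3e* 0.617, *Cd8a* 0.414 and *Themis* 0.253. Only *Ly6c2* stood apart from its neighbour in this order, with both control samples above both of *Cd3g*, whereas each of the later neighbours overlapped the next over the 2 control samples. In the *Ash1L* shRNA samples *Ly6c2* was still highest per length at 1.74, followed by *Lck* at 0.682 and *Cd4* at 0.571, and *Themis* was lowest at 0.0795. *Cd3g*, next to *Ly6c2* in the controls, stood at 0.317 there.

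DOWN, as the study's methods define it, asks for an unadjusted P below 0.05 and for a decrease of 1.2-fold or more. With the P of edgeR's quasi-likelihood test 8 of the 10 genes were DOWN, beside 8.28% of the 16232 genes tested, and the exceptions were *Cd8a* and *Lck*. DESeq2, the tool that the study used, gave 7, beside 6.35% of its genes, and edgeR's likelihood ratio test gave 10, beside 7.81%. At an adjusted p of 0.05 by edgeR's quasi-likelihood test 0 of the 10 were called, beside 0.00616% of all genes, while DESeq2 called 4, beside 2.52%, and the likelihood ratio test 6, beside 2.95%. Without control sample 2, 9 of the 10 were tested and 4 were DOWN, beside 1.86%. In 9 of the 10 genes both *Ash1L* shRNA samples were below both controls, beside 23.4% of all genes tested, and in 0 of them were both above, beside 29.7%. All 10 had a log2 fold change at or below -1, beside 1.47%. Their median log2 fold change was -1.98, against a median near 0 over all genes tested. Because the list was chosen on this contrast, nothing is read from these counts. Low counts add to this: 3 of the 10 genes reached the level that the filter on low counts asks for (0.420 CPM) in every sample, and 5 reached it in both controls and in neither *Ash1L* shRNA sample, so that those 5 had to differ to be tested at all.

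The control samples differed from each other in these genes. All 10 were higher in control sample 2 than in control sample 1, where 48% of all genes tested were, and 7 of the 10 were at least 1.5-fold higher, beside 7.34%. The median ratio of control sample 2 to control sample 1 was 1.94 over the 10 genes. It was smallest for *Cd4* (1.37), *Cd8a* (1.46) and *Cd3g* (1.49) and largest for *Cd3d* (3.71), *Themis* (3.59) and *Lck* (3.33). For *Ly6c2*, with the most counts, its interval was 1.67 to 2.41.

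The make-up of the T cell counts is given as a description too, since the list was drawn up with these counts in view. *Ly6c2* differed most of the 10 genes between the group means, 10.6-fold against 5.24-fold for the sum. Its share was therefore bound to be lower on average in the *Ash1L* shRNA samples. *Ly6c2* took 42.0% (36.7 to 47.4) and 42.1% (39.7 to 44.4) of the counts of the 10 genes in the controls, but 19.0% (14.1 to 24.8) and 23.4% (15.9 to 32.4) in the *Ash1L* shRNA samples. The share of *Cd4* was 18.7% and 12.8% in the controls and 20.8% and 33.3% in the *Ash1L* shRNA samples. In *Ash1L* shRNA sample 1 the most counts were on *Lck*, with 26.5%. The CD3 chains together had 52 and 271 counts in the controls and 24 and 15 in the *Ash1L* shRNA samples, or 3.65 and 7.58 against 0.873 and 0.746 CPM.

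The balance of coreceptors is likewise given as a description. *Cd4* held 55.2% (45.7 to 64.4) and 44.8% (40.3 to 49.3) of the sum of *Cd4* and CD3 counts in the controls, and 66.2% (54.0 to 77.0) and 71.2% (56.9 to 82.9) in the *Ash1L* shRNA samples, where the intervals of control sample 1 overlap those of both *Ash1L* shRNA samples. *Cd8a* held 19.0% and 20.0% of the sum of *Cd8a* and *Cd4* counts in the controls, and 30.9% (20.2 to 43.3) and 7.5% (1.57 to 20.4) in the *Ash1L* shRNA samples. The control samples were alike in this share, and the *Ash1L* shRNA samples lay on opposite sides of them. *Cd4* is also transcribed by some macrophages and dendritic cells, and how much of it came from T cells was not tested.

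**Figure D2:**
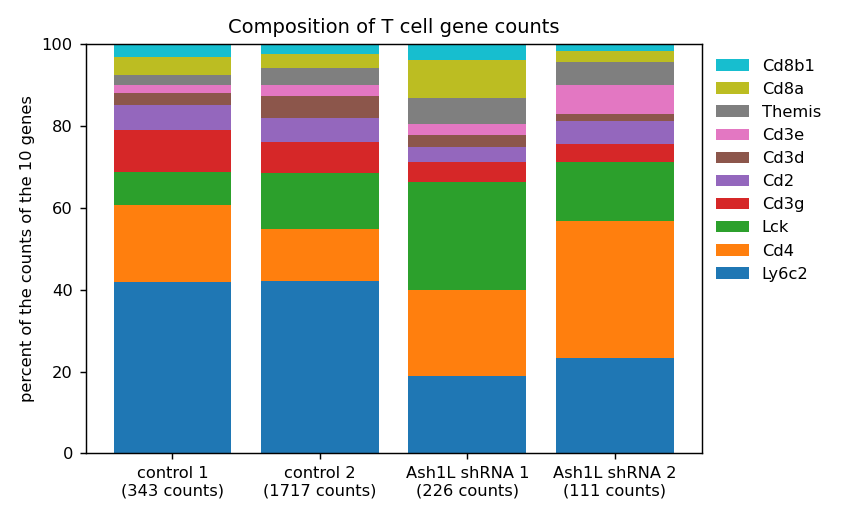
Share of the counts of the 10 T cell genes taken by each gene (percent), for each PFC sample, with the number of counts under each bar. *Ly6c2* takes 42.0% and 42.1% in the control samples and 19.0% and 23.4% in the *Ash1L* shRNA samples.

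Other genes of T cells that were not on the list of 10 were read from lists of the receptor and its signalling, of costimulation, of lineage transcription factors, and of cytokines and homing. Of 69 such symbols 65 were in the count tables and 55 passed the filter, 42 of them in every sample and 2 in the controls alone. By edgeR's quasi-likelihood test 20 of the 55 (36.4%) were DOWN, 1 was UP and 34 were not called, beside 8.28% DOWN and 8.61% UP over all genes. The median log2 fold change was -0.61. At an adjusted p of 0.05 this test called 0 of the 55 and 1 of all genes. DESeq2 called 6 of the T cell genes, beside 2.52% of all genes, and edgeR's likelihood ratio test 8, beside 2.95%. The adjusted p of the 21 genes called by the quasi-likelihood test without adjustment ran from 0.240 to 0.295. These p-values rest on 2 samples in each group, with the spread of each gene estimated partly from that of all genes tested. The number DOWN fell without control sample 2, as it did over all genes tested. Of the 65 genes 56 were higher in control sample 2 than in control sample 1, beside 48% of all genes tested. The genes for the constant regions of the receptor chains, *Trac*, *Trbc1*, *Trbc2* and *Trdc*, had no entry under these symbols in the counts, so their level could not be read.

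**Figure D3:**
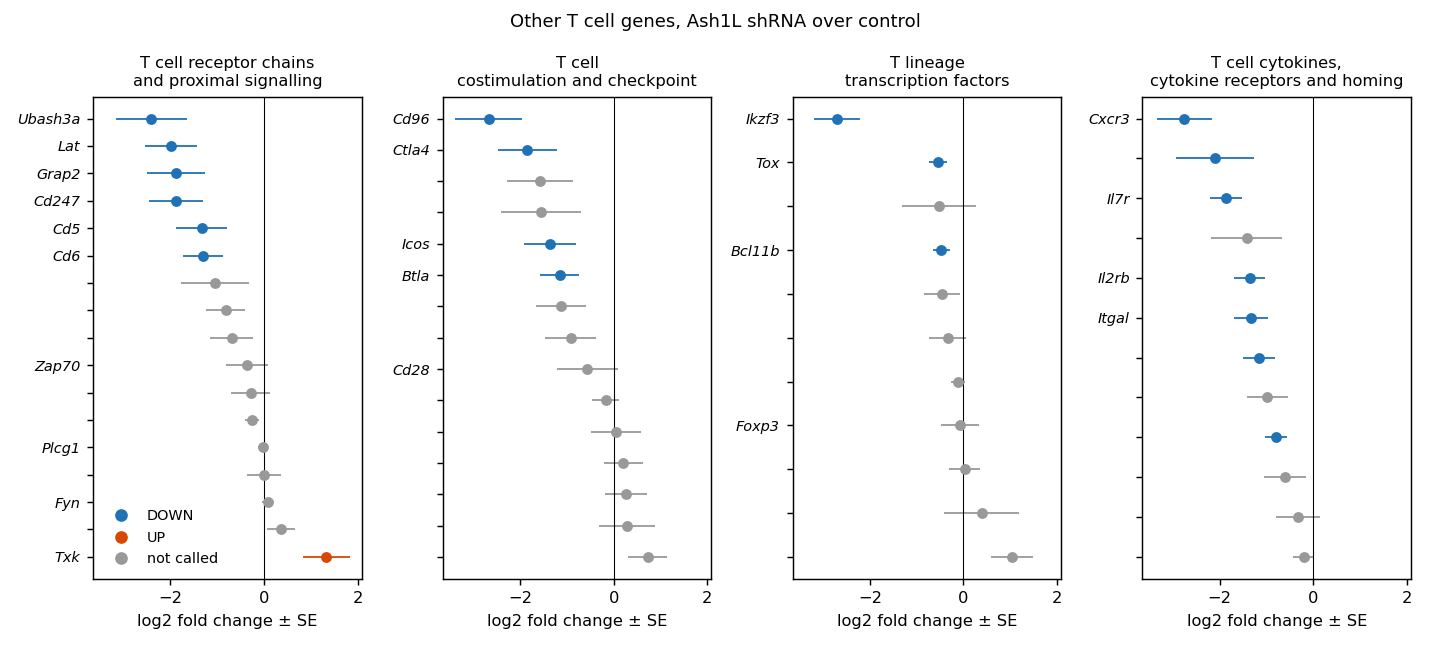
Log2 fold change (*Ash1L* shRNA over control) with its standard error for the 55 tested T cell genes outside the list of 10, in 4 groups. Blue points are DOWN (20 genes), the orange point is UP (*Txk*, 1.33), and grey points were not called. Genes named in the text are labelled, except *S1pr1*.

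In the group of the receptor and its proximal signalling, 6 of 17 tested genes were DOWN and 1 was UP. *Cd247*, the zeta chain that completes the CD3 complex, had 21 and 100 counts in the controls and 10 and 18 in the *Ash1L* shRNA samples, with a log2 fold change of -1.88 (SE 0.58). *Lat*, the membrane adaptor phosphorylated after receptor engagement, had 20 and 117 counts in the controls and 20 and 10 in the *Ash1L* shRNA samples, with a log2 fold change of -1.99 (SE 0.55). *Grap2*, an adaptor that binds Lat, followed at -1.88 (SE 0.62) with 11, 75, 13 and 7 counts. In these 3 genes both *Ash1L* shRNA samples were below both controls once scaled to depth. *Ubash3a*, a negative regulator of receptor signalling, was lowest of the group at -2.40 (SE 0.77), and *Cd5*, an inhibitory receptor, was at -1.33 (SE 0.55). *Cd6*, a surface receptor related to *Cd5*, had 4.35 and 6.49 CPM in the controls and 2.98 and 1.49 CPM in the *Ash1L* shRNA samples.

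The gene called UP was *Txk*, a kinase of the Tec family, with 5 and 15 counts in the controls and 24 in each of the *Ash1L* shRNA samples and a log2 fold change of 1.33 (SE 0.50). Its controls, at 0.351 and 0.419 CPM, lay under the filter level of 0.420 CPM, so it was tested only through the group in which it was high. It lost its call with either control sample left out and under DESeq2. The genes of this group with most counts were not called: the kinase *Fyn* had 124 and 109 CPM in the controls and 132 and 122 CPM in the *Ash1L* shRNA samples, and the phospholipase *Plcg1* was between 95.9 and 98.6 CPM in all 4 samples. Both are expressed by brain cells as well. *Zap70*, a kinase of T and NK cells that is named here after its values were seen, was not called either. It had 2.74 and 3.33 CPM in the controls and 1.49 and 3.48 CPM in the *Ash1L* shRNA samples, and its groups overlapped.

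Of the costimulatory and checkpoint receptors, 4 of 15 tested genes were DOWN, and the median of the 15 log2 fold changes was -0.92. *Cd96*, a receptor of T and NK cells, had 17 and 49 counts in the controls and 9 and 1 in the *Ash1L* shRNA samples, with a log2 fold change of -2.67 (SE 0.72). *Ctla4*, an inhibitory receptor of activated and regulatory T cells, was at -1.85 (SE 0.63), *Icos* at -1.36 (SE 0.56) and *Btla* at -1.16 (SE 0.42). *Cd96* and *Ctla4* reached the filter level of 0.420 CPM in the controls alone, so these genes had to differ to be tested at all. The costimulatory receptor *Cd28* was not called, with 1.54 and 3.80 CPM in the controls and 0.946 and 2.98 CPM in the *Ash1L* shRNA samples.

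Of the lineage transcription factors, 3 of 11 tested genes were DOWN. *Ikzf3*, a zinc finger factor of lymphocytes, had 31 and 117 counts in the controls and 15 and 6 in the *Ash1L* shRNA samples, with a log2 fold change of -2.70 (SE 0.49). *Tox* and *Bcl11b*, the others, changed by -0.54 (SE 0.19) and -0.47 (SE 0.19) and stood at 29.6 ± 0.00106 and 68.7 ± 2.04 CPM in the controls (SD, n = 2). Both are also transcribed in cortical neurons. *Foxp3*, the factor of regulatory T cells, had 1.40 and 1.65 CPM in the controls and 1.78 and 1.19 CPM in the *Ash1L* shRNA samples, was not called (log2 fold change -0.08, SE 0.41), and is named here after its values were seen.

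The group of cytokines, cytokine receptors and homing receptors had 7 of 12 tested genes DOWN and a median log2 fold change of -1.24. The 7 include *S1pr1*, which is named here after its values were seen. It had 181 and 161 CPM in the controls and 125 and 76.9 CPM in the *Ash1L* shRNA samples (log2 fold change -0.80, SE 0.25). No other gene of this group had a control mean above 15 CPM, and how much of *S1pr1* came from T cells was not tested. *Cxcr3*, the receptor through which activated T cells follow interferon-induced chemokines, had 33 and 172 counts in the controls and 21 and 6 in the *Ash1L* shRNA samples, with a log2 fold change of -2.75 (SE 0.59). *Il7r*, the receptor for the survival cytokine IL-7, had 55, 132, 26 and 24 counts, and its control samples were nearly equal at 3.86 and 3.69 CPM, against 0.946 and 1.19 CPM in the *Ash1L* shRNA samples. The gap between the groups was wider than the spread within either of them. *Il2rb*, a subunit of the IL-2 and IL-15 receptors, had 4.84 and 7.44 CPM against 2.26 and 2.74 CPM, and its groups did not overlap. *Itgal*, the integrin chain of LFA-1, had 85 and 428 counts in the controls and 101 and 76 in the *Ash1L* shRNA samples, with a log2 fold change of -1.33 (SE 0.36). The cytokine *Il17a* had 0 counts in every sample, where the floor of 3 counts stands at 0.211 CPM in control sample 1 and 0.0839 CPM in control sample 2.

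Markers of other blood cells were read in the same way. Of 5 tested B cell genes 4 were DOWN, beside 8.28% of all genes tested. In each of the 4 both *Ash1L* shRNA samples were below both controls, beside 23.4%. However, 3 of the 5 reached the filter level in the controls alone and so had to differ. The remaining gene, *Cd22*, was not called, with 3.51 and 5.28 CPM in the controls and 5.68 and 1.39 CPM in the *Ash1L* shRNA samples. *Cd79a*, part of the B cell receptor, had 31 and 82 counts in the controls and 7 and 5 in the *Ash1L* shRNA samples, with a log2 fold change of -3.16 (SE 0.46). *Ms4a1*, which encodes CD20, had 11 and 85 counts in the controls and 2 and 1 in the *Ash1L* shRNA samples. The 7 B cell genes in the tables summed to 11.2 and 19.0 CPM in the controls and 7.57 and 2.04 CPM in the *Ash1L* shRNA samples. Of 9 genes of cytotoxic and NK cells 3 were DOWN (*Ccl5*, *Nkg7* and *Ctsw*), or 0 without control sample 2, and the list summed to 12.7 and 28.3 against 11.2 and 7.81 CPM. *Ccl5*, a chemokine made by activated T and NK cells, had 79 and 435 counts in the controls and 74 and 19 in the *Ash1L* shRNA samples. The other 6 tested genes of cytotoxic and NK cells were not called, and their groups overlapped. Among them, the log2 fold change was -1.36 for *Klrk1*, -1.05 for *Prf1*, -0.08 for *Gzma* and 0.13 for *Gzmb*.

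Of 9 dendritic cell genes 3 were DOWN, and fewer without *Ash1L* shRNA sample 2. The list summed to 192 and 396 CPM in the controls and 136 and 76.0 CPM in the *Ash1L* shRNA samples. The genes DOWN were *Xcr1* and the MHC class II genes *Cd74* and *H2-Ab1*, and those of MHC class II held most of the sum. The other 6 were not called, and the groups overlapped in *Clec9a*, *Zbtb46*, *Itgax* and *Ciita*. Of 12 monocyte genes 2 were DOWN and 2 were UP (0 and 1 without control sample 2), with sums of 200 and 220 CPM in the controls and 257 and 193 CPM in the *Ash1L* shRNA samples. The monocyte receptor *Ccr2* was DOWN, at 5.68 and 9.79 against 3.17 and 1.84 CPM, and so was *Ly6i*. *Vcan* and *Gpnmb* were UP, with log2 fold changes of 0.77 (SE 0.20) and 1.24 (SE 0.41). The median log2 fold change of the 12 monocyte genes was -0.09. Of 12 microglia genes 0 were DOWN and 1 was UP, and of 10 genes shared by leukocytes in general 0 were called, by edgeR's quasi-likelihood test. The microglia list summed to 830 and 835 CPM in the controls and to 1124 and 467 CPM in the *Ash1L* shRNA samples. The general leukocyte list summed to 268 and 385 against 309 and 177 CPM. The calls in both lists depended on which *Ash1L* shRNA sample was left out, as did those over all genes tested. DESeq2 had 1 microglia gene and 2 general leukocyte genes DOWN. The endothelial list held 345 and 313 CPM in the controls and 359 and 336 CPM in the *Ash1L* shRNA samples. *Hba-a1* and *Hba-a2*, near-identical haemoglobin genes of red blood cells, were listed at 0 in every sample.

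As a share of the microglia list, the T cell counts were 2.90% and 5.75% in the controls and 0.732% and 1.18% in the *Ash1L* shRNA samples. As a share of the general leukocyte list they were 8.99% and 12.5% against 2.66% and 3.12%. On either scale both *Ash1L* shRNA samples were below both controls, although the microglia list itself ranged from 467 to 1124 CPM over the *Ash1L* shRNA samples. The parts that blood in the tissue, meninges in the punches and the virus had in the level of the T cell genes were not tested.

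**Figure D4:**
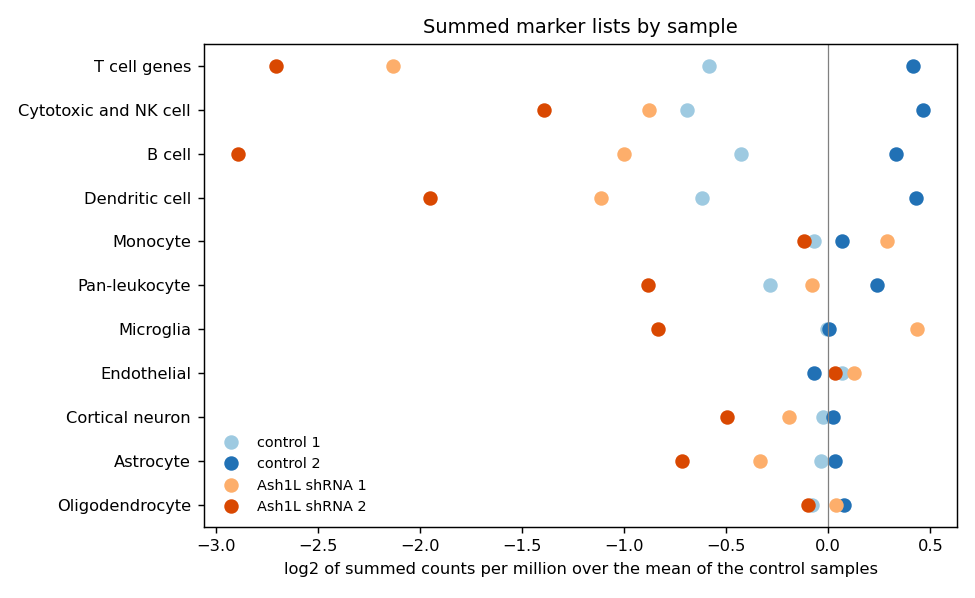
Summed CPM of the 10 T cell genes and of marker lists of other cell types, as log2 of the sum over the mean of the control samples, with 1 point for each of the 4 PFC samples. Control sample 2 is highest and *Ash1L* shRNA sample 2 lowest in the T cell, cytotoxic, B cell, dendritic cell, general leukocyte, neuron, astrocyte and oligodendrocyte lists, and the sums of the T cell genes span 5.52 to 48.0 CPM.

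The genes whose profile over the 4 samples was most like that of the 10 T cell genes were sought among all genes tested, by the Euclidean distance between the shares of CPM that fell in each sample. The T cell genes together had 28.0%, 55.9%, 9.58% and 6.43% of their summed CPM in control samples 1 and 2 and *Ash1L* shRNA samples 1 and 2. The closest gene was *Cd74*, the invariant chain of MHC class II, with 26.3%, 55.8%, 11.2% and 6.71% (distance 0.0235). It was followed by *Rnase6* (0.0329), an antimicrobial ribonuclease, *H2-Aa* (0.0381), an MHC class II chain, *Cxcr3* (0.0397) and *Ccl5* (0.0431). The counts of *Cd74* were 1714 and 9107 in the controls and 1401 and 616 in the *Ash1L* shRNA samples. These likenesses rest on 4 samples.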

How the data were processed

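Total RNA depleted of ribosomal RNA was sequenced from 2 control and 2 *Ash1L* shRNA samples, grouped by their labels. The authors aligned reads to mm10 with STAR and counted them per gene symbol with featureCounts. What they deposited are raw counts, neither normalized nor filtered. The labels' protocol also names Cutadapt and TopHat2. Reads shared by overlapping or copied genes cannot be separated.

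Genes that passed filterByExpr were fitted with edgeR 4.0.16 (R 4.3.3) with TMM normalization and the robust quasi-likelihood test, and adjusted by Benjamini-Hochberg over all 16232 genes tested. Standard errors are the log2 fold change over the square root of F. The fit was run on simulated counts with the same spread for every gene. That is simpler than these data, so nothing about error rates here is read from it. CPM were counts over the total count of the sample. DOWN and UP were P under 0.05 and at least 1.2-fold. The 10 genes and all lists were chosen with earlier results of these data known. Named were every member, *Ash1l*, up to 5 genes called in each direction and up to 4 others by mean count of each list, the 5 closest profiles, and near-identical or overlapping genes. Genes outside this rule are said to be so, and a few within it are left unreported. Coordinates came from GENCODE vM21 (mm10) and promoters from RefSeq (GRCm38.p6).

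Alternatives were DESeq2 1.42.0, edgeR's likelihood ratio test, RLE and library-size scaling, other filters, a replicate block, other scales and summaries of the 10 genes, and each sample left out. Samples that share a number are separate pools. Their deviations from the group means correlated at -0.15, so the numbers were not used to pair samples. Replicates differed beyond counting error, with a chi-square per degree of freedom of 14.8 for the controls and 42.3 for the *Ash1L* shRNA samples.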

Additional observations from a re-analysis of the deposited data

How the results depend on the processing

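The log2 fold changes of the 10 genes, their sum and *Ash1l* kept their direction under each alternative in which they were fitted. The balance of DOWN and UP was less stable, and turned, among other cases, in the cytotoxic list without control sample 2 (0 and 1, against 3 and 0), in the microglia list with DESeq2 (1 and 0) and without *Ash1L* shRNA sample 1 (10 and 0, against 0 and 1), and over all genes with DESeq2 (1282 and 1243, against 1344 and 1397). The log2 ratio of the summed 10 genes was -2.39, and -1.81 as the median over the genes with 1 count added. It was -1.94 without *Ly6c2*, -2.38 without *Cd4*, *Ly6c2* and *Lck*, and, on scales chosen after seeing the data, -2.18 against the microglia list and -1.89 against the leukocyte list. Leaving out each sample gave -2.80 to -1.81, the value closest to 0 being without control sample 2. Of the other T cell genes, 20 were DOWN and 1 UP. Requiring at least 10 counts in every sample left 13 DOWN, and with samples left out in turn 3 (without control sample 2) to 26 were DOWN and 0 to 2 UP. The UP count was 0 with DESeq2 and with a mean of at least 1 CPM, a limit added after seeing the data, and 2 with the likelihood ratio test. That limit kept 16 of 45 T cell genes DOWN (35.6%), beside 8.70% of all genes. Over all genes 1 passed an adjusted p of 0.05 (2746 an unadjusted P of 0.05), against 420 with DESeq2, 479 with the likelihood ratio test, 34 without the filter and 0 to 2502 with samples left out, the highest without *Ash1L* shRNA sample 1. With samples left out, 306 to 2718 genes were DOWN, against 1344, and 423 to 2368 UP, against 1397, the lowest of both without control sample 2 and the highest, with more DOWN than UP, without *Ash1L* shRNA sample 1. The other cell type lists had 21 DOWN and 7 UP genes, 8 to 53 and 4 to 16 with samples left out, and 4 UP with at least 10 counts in every sample. With the replicate block, which has no basis in the design, the sum of the 10 genes was at -2.33, and 16 other T cell genes were DOWN, 0 UP, and 0 of all genes passed adjustment. With the block crossed, added after seeing the data, 22 other T cell genes were DOWN and 0 UP, 32 genes of other cell types were DOWN, and 16 of all genes passed adjustment. The causes of these shifts were not tested. Of the 10 genes 3 had at least 10 counts in every sample, and a count of 3 in control sample 1 is already 0.211 CPM, so depth limits the low genes most in that sample.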

Other observations

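Molecules that bring T cells into tissue were read as a separate list. Of 10 tested chemokine and adhesion genes 1 was DOWN and 3 were UP by edgeR's quasi-likelihood test, with a median log2 fold change of 0.77. The counts were 0 and 2 without control sample 2, 2 and 2 without *Ash1L* shRNA sample 1, and 0 and 5 without *Ash1L* shRNA sample 2. With at least 10 counts in every sample they were 1 and 0, and *Sele* and *Ccl4* lay under the filter level of 0.420 CPM in both controls, so they were tested only through the group in which they were high. *Cxcl9*, an interferon-induced ligand of Cxcr3, was the one DOWN, with 91 and 544 counts in the controls and 131 and 45 in the *Ash1L* shRNA samples and a log2 fold change of -1.66 (SE 0.53, adjusted p 0.260). *Cxcl10*, another ligand of Cxcr3, was not called, with 7.79 and 8.78 CPM in the controls and 11.9 and 7.16 CPM in the *Ash1L* shRNA samples. *Sele*, which encodes the E-selectin of activated endothelium, had 2 and 3 counts in the controls and 26 and 34 in the *Ash1L* shRNA samples (log2 fold change 3.56, SE 0.67, adjusted p 0.241). *Ccl2*, a chemokine for monocytes, had 7 and 46 counts in the controls and 77 and 96 in the *Ash1L* shRNA samples (log2 fold change 1.93, SE 0.52, adjusted p 0.255). *Ccl4*, a chemokine for lymphocytes and monocytes, had 4 and 15 against 64 and 16 counts (log2 fold change 2.07, SE 0.68, adjusted p 0.260). In the 3 genes called UP both *Ash1L* shRNA samples were above both controls in CPM. The whole list of 14 genes summed to 73.5 and 97.1 CPM in the controls and 94.0 and 76.5 CPM in the *Ash1L* shRNA samples, so the sum did not separate the groups.

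Of the other lists, 3 of 10 genes of cortical neurons, 5 of 7 of astrocytes and 0 of 6 of oligodendrocytes were DOWN (0, 3 and 0 without control sample 2), and 0 of 2 of neutrophils and 0 of 1 of red blood cells were called.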
